A study of Mus musculus with 13 samples.

Results

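Mgp and Ptgds are a pair of genes that stood at or near 0 in the cell gates of the E8.5 and E10.5 samples and were found at higher levels later: Mgp from E12.5 in mesenchymal, mural, epicardial and endothelial cells and from E16.5 in cardiomyocytes, and Ptgds from E14.5 in cardiomyocytes. They are 2 of the 27998 genes in the count matrices, were matched by symbol, and were chosen on earlier results of these data, selected on their low levels at early stages and higher levels at late stages, so their levels over the stages are given as a description with no test. The cells came from wild-type C57Bl/6J mice and were profiled with droplet single-cell RNA-seq (10x Genomics), which counts unique molecular identifiers (UMIs, tags that mark single captured transcripts) for each cell barcode. The samples at E8.5 and E10.5 were embryos without head and limbs, those from E12.5 onward were hearts, up to P3 (postnatal day 3), and no group carried a treatment or an allele. Of the 13 samples, 10 matrices were analysed: 1 at E8.5, 2 each at E10.5, E12.5, E14.5 and E16.5, and 1 at P3, which holds barcodes with 2 suffixes that were not tied to a sample. The labels do not say whether replicates came from separate litters, so p-values measure only the spread between these libraries.

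Mgp encodes matrix Gla protein, a small secreted protein whose glutamate residues are carboxylated in a vitamin K-dependent step, which binds calcium and mineral, keeps cartilage and artery walls free of mineral, and binds bone morphogenetic proteins (BMPs). It is known from smooth muscle, endothelial cells, chondrocytes and valve cells. Ptgds encodes lipocalin-type prostaglandin D synthase, a secreted lipocalin that both carries small lipophilic molecules such as retinoids and converts prostaglandin H2 to prostaglandin D2. It is best known from the meninges, the epididymis, melanocytes and the heart. In GRCm38 with the GENCODE vM21 annotation, Mgp (ENSMUSG00000030218) lies on the minus strand at chr6:136872435-136875823 with 4 exons in its protein-coding transcript, and Ptgds (ENSMUSG00000015090) on the minus strand at chr2:25466709-25470046 with 7 to 8 exons in its 3 protein-coding transcripts. No annotated gene overlapped either of them.

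Barcodes with at least 2000 UMIs and at least 1% mitochondrial UMIs were kept, 3984 to 12132 a matrix and 67411 in all, with 52287206 to 208521528 UMIs a matrix. Cardiomyocytes were gated by Tnnt2 with Myl2 or Myl7 and called ventricular-like or atrial-like by the share of Myl2 in Myl2 plus Myl7. Endothelial, mesenchymal, mural (pericyte and smooth muscle), epicardial and macrophage gates each asked for at least 3 detected markers of a list. Sln, which the chamber rule did not use, stood at 43.7 UMIs per 10000 in the atrial-like and 0.180 in the ventricular-like gate of E16.5, replicate 1. Nppa, listed by the paper for atrial myocytes, was below 1 per 10000 in part of each atrial-like gate. Replicates 1 and 2 had 85 (gate size 240) and 102 (284) such barcodes at E12.5. The numbers were 89 (223) and 50 (138) by E14.5, and 44 (266) and 55 (274) by E16.5. With chambers called by other markers, the E12.5 chamber difference changed direction for both genes. At E8.5 and E10.5 the cardiomyocyte gate held 119, 79 and 83 barcodes. Of these only 1, 8 and 3 had a Myl2 share as high as in the ventricular-like gate. Chamber levels are therefore given only from E12.5 onward. Levels are UMIs of the gene per 10000 UMIs summed over all barcodes of a gate in a library. Macrophages, of which neither gene is a marker, served as the reference for free RNA in the suspension. Shared barcodes did not stand out: over 55 pairs of matrices or suffixes the observed number was 0.612 to 1.44 times that expected from random draws.

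Both genes were at or near 0 in the gates of the earliest stages, whose non-muscle cells come from the whole embryo body and not from the heart alone. At E8.5, 0 UMIs of either gene were found in 119 cardiomyocyte barcodes, which allows a level of up to 0.0103 per 10000, and 1 Mgp UMI was found in 173 endothelial barcodes. At E10.5 the cardiomyocyte gates held 1 Mgp UMI in replicate 1 and 1 Ptgds UMI in replicate 2. The epicardial gates of E10.5 held 4 Mgp UMIs in each replicate (0.124 and 0.122 per 10000), the highest level of Mgp in any gate of that stage. Barcodes in no gate, which come from the rest of the embryo as well, held Mgp at 0.0151 per 10000 at E8.5 and at 0.0238 and 0.0216 at E10.5.

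Among the gates, Ptgds had its highest level in ventricular-like cardiomyocytes at each stage from E12.5 to P3 except at E12.5, where the epicardial gate stood higher. A few barcodes with melanocyte markers, given below, stood above the ventricular-like gate from E14.5, at 55.1 and 28.8 at E16.5. In the epicardial gate Ptgds stood at 0.892 and 0.777 at E16.5, near the atrial-like 0.906 and 0.866. In ventricular-like cardiomyocytes it stood at 0.0177 and 0.0122 UMIs per 10000 in the 2 libraries at E12.5, at 0.648 and 0.653 at E14.5, at 3.66 and 3.52 at E16.5 and at 4.55 at P3. The libraries of a stage lay close together and no stage overlapped the next in the embryo. The mean at E14.5 was 43.5 times that at E12.5, the mean at E16.5 was 5.52 times that at E14.5, and the P3 level was 1.27 times the E16.5 mean. At P3 the barcodes with suffix 1 stood at 5.06 and those with suffix 2 at 3.15, which lies below both E16.5 libraries, so a further rise after E16.5 was not seen in each suffix.

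Atrial-like cardiomyocytes followed at a lower level. Ptgds stood there at 0.00370 and 0.00674 per 10000 at E12.5 (2 and 4 UMIs), at 0.158 and 0.103 at E14.5, at 0.906 and 0.866 at E16.5 and at 1.92 at P3. The P3 level was 2.16 times the E16.5 mean, with 2.04 and 1.70 in the 2 suffixes, both above the E16.5 libraries. At each stage every atrial-like value was below every ventricular-like value.

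The number of cells with the transcript changed along with the level. With each barcode thinned to 2000 UMIs, Ptgds was detected in 0.149% and 0.340% of ventricular-like barcodes at E12.5. The shares were 11.3% and 11.9% by E14.5, 44.1% and 44.9% by E16.5 and 49.4% in P3 hearts. At full depth the shares at E16.5 were 91.1% and 84.2%, where the median depth was 19968 and 14666 UMIs. In macrophages of E16.5, with a median depth of 10372 and 7870 UMIs, the thinned shares were 2.74% and 3.85% and the full-depth shares 12.3% and 9.62%. Ptgds was spread over the ventricular-like cells rather than held by a few: the tenth of barcodes with the most UMIs of the gene carried 29.1% and 34.0% of its UMIs at E16.5, and the median barcode stood at 2.90 and 2.77 per 10000.

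**Figure D1:**
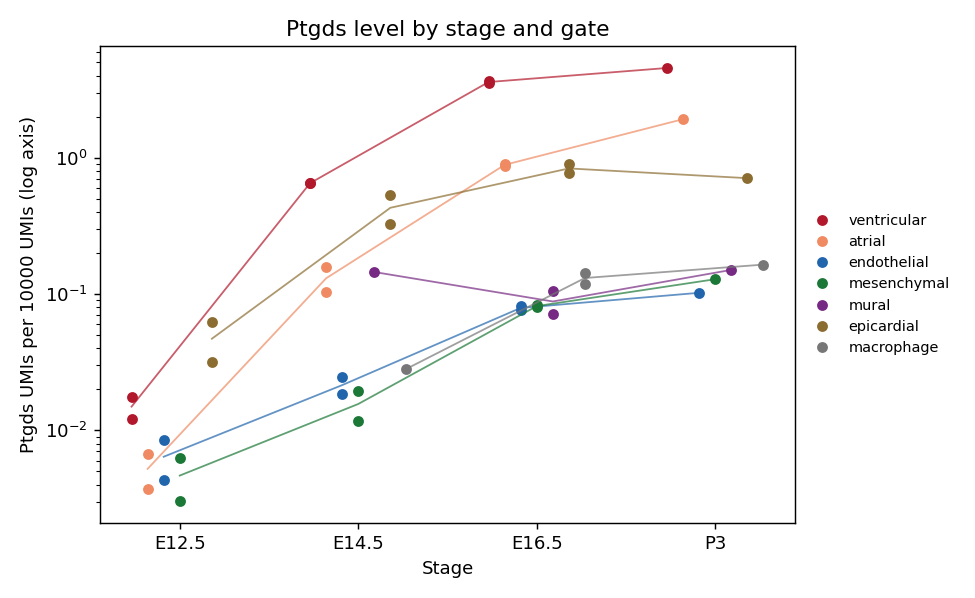
Ptgds UMIs per 10000 UMIs (log axis) by stage and gate; each point is 1 library, lines join stage means, and values of 0 and sums under 10 barcodes are not drawn. Ventricular-like cardiomyocytes reach 3.66 and 3.52 at E16.5, atrial-like ones 0.906 and 0.866, and the endothelial, mesenchymal and mural gates lie near the macrophage gate.

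Outside cardiomyocytes, Ptgds in the endothelial, mesenchymal and mural gates did not stand above macrophages at E16.5 and P3. At E16.5 it was 0.0824 and 0.0759 per 10000 in endothelial, 0.0807 and 0.0824 in mesenchymal and 0.0708 and 0.106 in mural barcodes, beside 0.143 and 0.119 in macrophages. At P3 these gates stood at 0.102, 0.129 and 0.150, beside 0.164 in macrophages. At E12.5 and in E14.5 replicate 2 macrophages held 0 Ptgds UMIs, in 9 to 41 barcodes a library, and the endothelial gate stood at 0.00430 and 0.00852 at E12.5 and at 0.0245 in E14.5 replicate 2. The part of free RNA in these levels was not tested. In barcodes with 1 to 100 UMIs, which carry mostly free RNA, Ptgds stood at 0.0429 and 0.0260 at E12.5, at 0.348 and 0.546 at E14.5 and at 2.65 in both libraries at E16.5.

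The test of the chambers asked whether the 2 genes differed between atrial-like and ventricular-like cardiomyocytes, which the choice of the genes did not use. Over all 13785 genes tested as the mean of the 3 stages from E12.5 to E16.5, 19.7% were higher in atrial-like and 30.2% higher in ventricular-like cells at an adjusted p under 0.05. Ptgds was among the latter, with a log2 difference (atrial-like minus ventricular-like) of -2.12 ± 0.15 (SE, 2 libraries a stage, edgeR adjusted p = 5.2e-15). By stage the differences were -1.64 ± 0.53 at E12.5 (edgeR adjusted p = 0.0148, beside 18% of genes higher in ventricular-like cells), -2.46 ± 0.16 at E14.5 (edgeR adjusted p = 4.0e-15, beside 19.5%) and -2.27 ± 0.10 at E16.5 (edgeR adjusted p = 7.0e-21, beside 20.9%). The E12.5 value rests on 6 UMIs in atrial-like cells and turned to 0.24 (edgeR adjusted p = 0.606) when chambers were called by other markers.

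Ptgds was also far higher in ventricular-like cardiomyocytes than in the mesenchymal and endothelial gates. The epicardial gate, whose mean was 0.429 beside the ventricular-like 0.651 at E14.5, entered no comparison. The mean log2 difference was -4.42 ± 0.14 for mesenchymal minus ventricular-like (edgeR adjusted p = 1.1e-26) and -3.98 ± 0.13 for endothelial minus ventricular-like cells (edgeR adjusted p = 2.4e-26). Of all genes, 41.1% and 42.1% were higher in ventricular-like cells in these comparisons. Between the mesenchymal and endothelial gates Ptgds did not pass the test, at -0.44 ± 0.24 (edgeR adjusted p = 0.0995, with 35.1% of genes higher in endothelial cells), and it passed without E12.5 replicate 1 (-0.72, edgeR adjusted p = 0.0228) or without E14.5 replicate 1 (-0.65, edgeR adjusted p = 0.0406). At E16.5 the differences of mural minus mesenchymal (-0.0016 ± 0.36), valve minus fibroblast (-0.44 ± 0.39) and endocardial minus coronary barcodes (-0.05 ± 0.33) did not pass either. At E14.5 endocardial minus coronary was 0.83 ± 0.53 (edgeR adjusted p = 0.211), from 11 and 11 against 5 and 5 Ptgds UMIs. In the other comparisons of these smaller sums at E12.5 and E14.5 at least 1 gate held 0 to 2 Ptgds UMIs a library, and no fold is given.

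**Figure D2:**
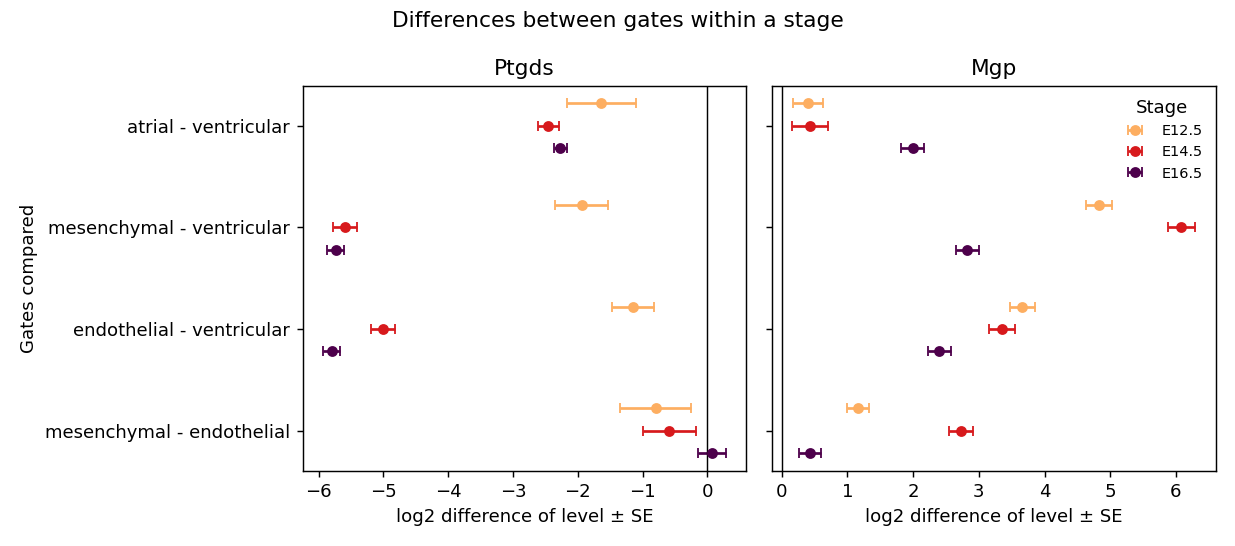
Log2 difference of the level between gates within a stage (edgeR fit over 6 libraries, point and SE; the 3 colours are E12.5, E14.5 and E16.5), with Ptgds on the left and Mgp on the right. For Ptgds the 3 comparisons with ventricular-like cells lie below 0 at each stage, and for Mgp the atrial-like difference is 2.00 at E16.5 and 0.40 and 0.43 before.

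Mgp showed a different distribution, with its highest levels in mesenchymal, mural and epicardial cells at E12.5 and in epicardial and valve cells at E16.5. In the mesenchymal gate it stood at 0.0131 and 0.0487 per 10000 at E10.5 (1 and 3 UMIs), but those barcodes come from the embryo body and the later ones from hearts, so tissue and stage cannot be told apart between them. It stood at 7.48 and 6.51 per 10000 at E12.5, at 16.2 and 15.6 at E14.5, at 12.3 and 11.5 at E16.5 and at 25.8 at P3. The E16.5 libraries lay between those of E12.5 and E14.5, so the level did not climb at every step. In the endothelial gate Mgp stood at 2.91 and 2.37, then 2.29 and 1.87, then 9.71 and 8.38, and at 12.3 at P3, and the mean was 4.34 times higher at E16.5 than at E14.5. At P3 suffix 1 stood at 16.9 and suffix 2 at 5.41, which lies below both E16.5 libraries. The mural gate gave 8.07 and 9.69, then 2.74 and 6.67, then 9.17 and 5.95, and 17.8 at P3, and its E16.5 libraries overlapped those of both earlier stages. It held only 20 and 29 barcodes at E12.5 and 10 and 13 at E14.5.

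**Figure D3:**
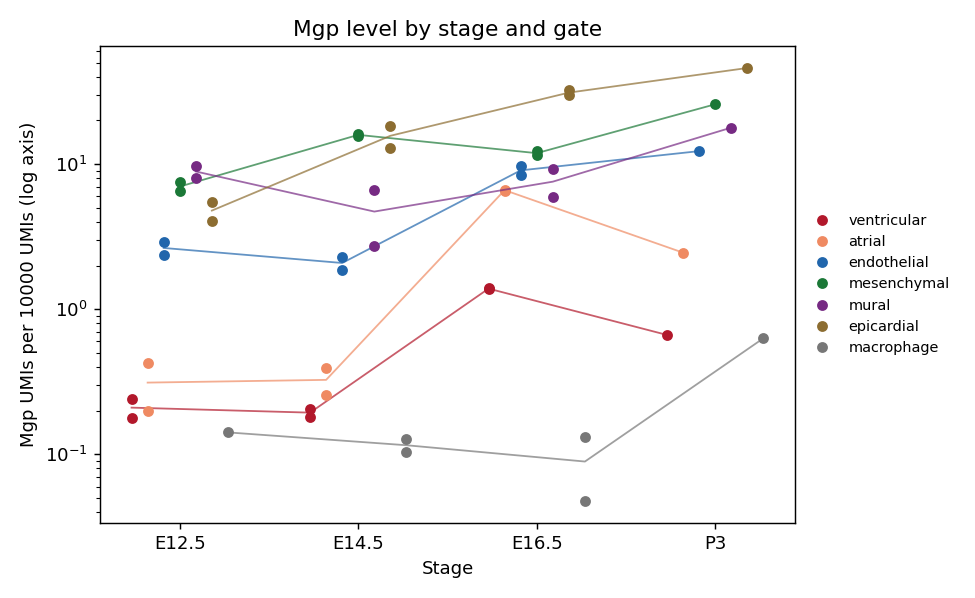
Mgp UMIs per 10000 UMIs (log axis) by stage and gate; each point is 1 library and lines join stage means. Mural barcodes lie highest at E12.5 and epicardial barcodes at E16.5, and the atrial-like level goes from 0.258 and 0.395 at E14.5 to 6.65 and 6.57 at E16.5.

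In cardiomyocytes Mgp was low until E14.5, and at E16.5 its level was higher in atrial-like than in ventricular-like cells. Atrial-like cells stood at 0.1999 and 0.425 per 10000 at E12.5, at 0.258 and 0.395 at E14.5, at 6.65 and 6.57 at E16.5 and at 2.45 at P3. The E16.5 mean was 20.3 times that at E14.5, with no overlap of the libraries, and the P3 level was 0.371 times the E16.5 mean. Ventricular-like cells stood at 0.241 and 0.179, then 0.207 and 0.181, then 1.38 and 1.40, and at 0.665 at P3. Macrophages stood at 0.131 and 0.0478 at E16.5 and at 0.631 at P3, so the ventricular-like level was 10.51 and 29.3 times the macrophage level at E16.5 and 1.05 times at P3. The macrophage gate held only 73 and 52 barcodes at E16.5, so the E16.5 ratios rest on few macrophage Mgp UMIs. In barcodes with 1 to 100 UMIs Mgp stood at 2.24 and 2.38 at E14.5 and at 3.13 and 3.09 at E16.5, above the ventricular-like level of both stages. The P3 ratio depends on the mitochondrial filter, given with the other P3 values. The markers of the mesenchymal list summed to 0.674 and 0.688 per 10000 in ventricular-like and 0.733 and 0.625 in atrial-like cells at E16.5, beside 0.440 and 0.454 in macrophages and 114 and 118 in the mesenchymal gate. The part of other cells' RNA in the Mgp levels of cardiomyocytes was not tested.

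The chamber difference of Mgp ran opposite to that of Ptgds. The log2 difference of atrial-like minus ventricular-like was 0.94 ± 0.13 for Mgp as the mean of the 3 stages (edgeR adjusted p = 1.6e-07). It was 2.00 ± 0.17 at E16.5 (edgeR adjusted p = 4.2e-12, beside 13.4% of genes higher in atrial-like cells), while 0.40 ± 0.22 at E12.5 (edgeR adjusted p = 0.178) and 0.43 ± 0.27 at E14.5 (edgeR adjusted p = 0.246) did not pass. With the library as a replicate block the E12.5 value passed, at 0.43 ± 0.17 (edgeR adjusted p = 0.0447), but it turned to -0.47 without E12.5 replicate 2. Whether the chamber difference itself changed between stages was not tested, because the genes were chosen for their change over stages.

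Mesenchymal and endothelial cells carried more Mgp than ventricular-like cardiomyocytes at every tested stage. The mean log2 difference was 4.58 ± 0.11 for mesenchymal (edgeR adjusted p = 4.6e-31) and 3.14 ± 0.11 for endothelial cells (edgeR adjusted p = 3.0e-26), beside 41.3% and 40.1% of all genes higher in these gates. For mesenchymal cells the difference was 4.83 at E12.5, 6.09 at E14.5 and 2.82 at E16.5. Mesenchymal exceeded endothelial cells by 1.44 ± 0.10 (edgeR adjusted p = 5.5e-16), a direction that 34.1% of genes shared, and at E16.5 by only 0.42 ± 0.17 (edgeR adjusted p = 0.0323, beside 25.8% of genes). This last call was lost without E16.5 replicate 1 (0.49) and without E16.5 replicate 2 (0.38). With all libraries kept it was also lost with DESeq2 and without the top 5% of barcodes by UMIs. Mural cells were below mesenchymal cells by a mean of -0.75 ± 0.12 (edgeR adjusted p = 1.8e-05, a direction of 11.2% of genes), with 0.24 ± 0.19 at E12.5 (edgeR adjusted p = 0.595), -1.82 ± 0.26 at E14.5 (edgeR adjusted p = 5.6e-06, beside 3.18% of genes) and -0.68 ± 0.18 at E16.5 (edgeR adjusted p = 0.0037, beside 10.4%). The mean lost its call with looser gates (-0.03, edgeR adjusted p = 0.886), and without E16.5 replicate 2 the E16.5 call was lost (-0.49, edgeR adjusted p = 0.217).

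Within the mesenchyme, Mgp was compared between barcodes with cushion and valve markers (Sox9, Scx, Hapln1 and others), the cells that build the heart valves, and barcodes with fibroblast markers. The level in valve barcodes was 7.30 and 6.34 per 10000 at E12.5, slightly below the 7.48 and 6.51 of the whole mesenchymal gate. It was 19.4 and 18.9 by E14.5, 32.1 and 23.0 by E16.5 and 65.8 in P3 hearts. Barcodes with fibroblast markers (Tcf21, Dpt and others) stood at 7.45 and 2.36 at E14.5, at 4.57 and 5.81 at E16.5 and at 19.5 at P3, and the gate held only 6 barcodes in each E12.5 library. Every valve value was above every fibroblast value of its stage. The log2 difference of valve minus fibroblast was 1.95 ± 0.22 over E14.5 and E16.5 (edgeR adjusted p = 2.6e-08), with 6.96% of the 12015 genes tested higher in the valve gate. Valve barcodes were 489 and 742 of 551 and 830 mesenchymal barcodes at E12.5 and 518 and 495 of 717 and 663 at E14.5. They were 135 and 149 of 616 and 536 at E16.5. The part of this share in the level of the whole mesenchymal gate was not tested.

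Within the endothelium, Mgp was higher in the endocardial than in the coronary gate at each tested stage. Barcodes with endocardial markers (Npr3, Nfatc1 and others), which line the chambers, stood at 3.095 and 2.54 at E12.5, at 3.96 and 3.64 at E14.5, at 18.6 and 16.9 at E16.5 and at 26.6 at P3, where suffix 1 stood at 30.7 and suffix 2 at 13.0, below both E16.5 libraries. Barcodes with coronary markers (Fabp4, Cd36 and others) stood at 0.738 and 1.00, then 0.123 and 0.0759, then 2.17 and 0.472, and at 7.94 at P3. The endocardial gate was higher by 3.44 ± 0.22 on the log2 scale (edgeR adjusted p = 4.8e-15), with 28.5% of genes higher in it, and by 1.67, 5.09 and 3.55 at the 3 stages. Thinned to 2000 UMIs, Mgp was detected in 89.1% and 88.4% of endocardial barcodes at E16.5 but in 8.79% and 7.45% of coronary barcodes. The coronary UMIs came from few cells: at E16.5, replicate 1, the tenth of barcodes with the most Mgp held 94.9% of them, and 1 barcode held 522 UMIs. Coronary barcodes were 30 and 33 of 809 and 957 endothelial barcodes at E12.5. They were 182 and 161 of 431 and 397 at E16.5. The part of this share in the level of the whole endothelial gate was not tested.

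**Figure D4:**
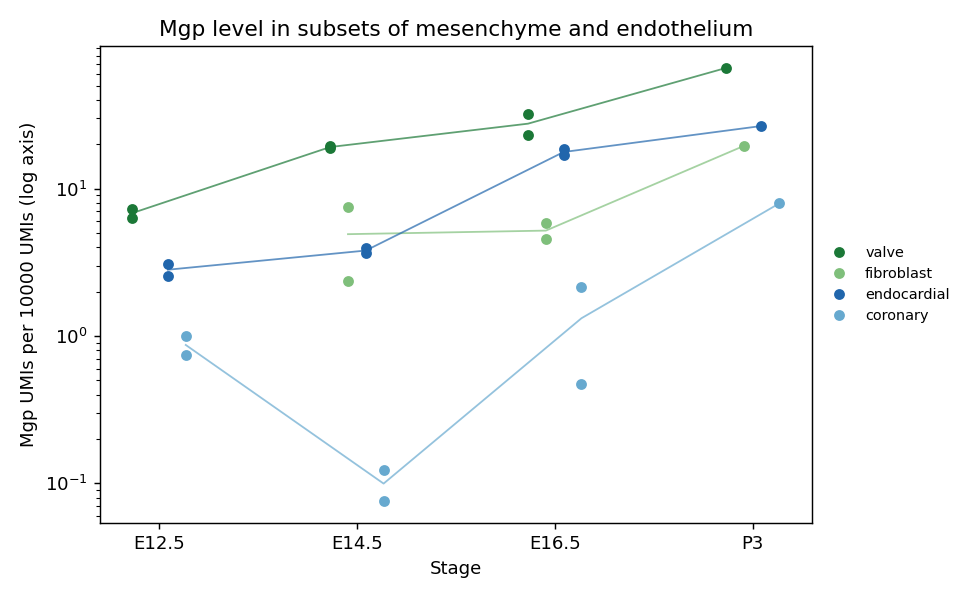
Mgp UMIs per 10000 UMIs (log axis) in the valve, fibroblast, endocardial and coronary gates; each point is 1 library, lines join stage means, and the fibroblast gate at E12.5 is left out for having 6 barcodes a library. Valve barcodes lie above fibroblast barcodes, and endocardial above coronary barcodes, at each stage drawn.

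The coronary barcodes were split by arterial markers (Gja4, Hey1, Sema3g, Fbln5 and Stmn2 summing to at least 5 per 10000), a split chosen after the values were seen and so not tested. At E16.5 Mgp stood at 10.8 and 1.17 in these and at 0.667 and 0.366 in the other coronary barcodes. In replicate 1 the single barcode with 522 UMIs held most of the 604 Mgp UMIs of the arterial barcodes. In replicate 2 the arterial barcodes held 41 Mgp UMIs and the others 84, and Mgp was detected in 23.1% and 25.2% of them. At P3 it stood at 36.8 against 1.72, with 40.1 and 2.46 in suffix 1 and 27.2 and 0.955 in suffix 2, so that the arterial barcodes stood above the endocardial gate of that stage. In the mural gate of P3, barcodes with smooth muscle markers stood at 15.4 and those with pericyte markers at 17.9, and their order differed between the suffixes, with 18.4 and 25.3 in suffix 1 and 11.8 and 8.93 in suffix 2.

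Among ventricular-like cells of E16.5, Mgp was higher and Ptgds slightly lower with more Nppa, the natriuretic peptide gene that marks trabecular myocardium in the fetal ventricle. At E16.5 Mgp stood at 0.868 and 0.941 per 10000 where Nppa was under 1 per 10000, at 2.11 and 1.82 where it was 1 to 20, and at 4.48 and 4.71 where it was 20 or more. Ptgds stood at 3.72 and 3.59, then 3.59 and 3.50, then 3.16 and 2.93. At E14.5 Mgp stood at 0.146 and 0.137 in the lowest bin, at 0.251 and 0.118 in the middle bin and at 0.729 and 0.827 in the highest. At E12.5 it stood at 0.294 and 0.196 in the lowest and at 0.204 and 0.197 in the highest, with no rise in both libraries. Ptgds at E14.5 stood at 0.626 and 0.641 in the lowest bin, at 0.735 and 0.728 in the middle bin and at 0.650 and 0.559 in the highest. At P3 Mgp stood at 0.523, 0.661 and 1.09 in suffix 1 and at 0.424, 0.425 and 0.897 in suffix 2, with like values in the lower bins, whereas Ptgds was higher with more Nppa, at 4.37, 4.74 and 6.27 in suffix 1 and at 2.96, 3.18 and 4.32 in suffix 2. The bins were also chosen after values were seen, hold cells of the same libraries and were not tested.

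**Figure D5:**
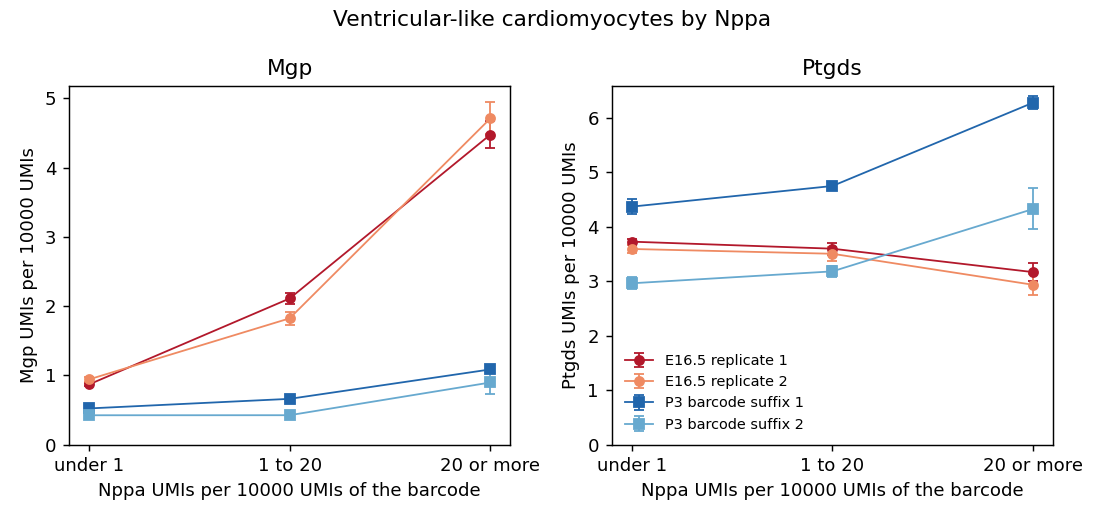
Mgp (left) and Ptgds (right) UMIs per 10000 UMIs in ventricular-like cardiomyocytes in 3 bins of Nppa, for both E16.5 libraries and the 2 barcode suffixes of P3; bars are 95% Poisson intervals and cover counting error only. At E16.5 Mgp goes from 0.868 and 0.941 to 4.48 and 4.71 across the bins while Ptgds goes from 3.72 and 3.59 to 3.16 and 2.93.

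The P3 values depended on the suffix and on the filter. Mgp was higher in suffix 1 than in suffix 2 in every gate listed here, by 1.46 times in macrophages, 1.66 in ventricular-like, 3.86 in atrial-like, 3.08 in mesenchymal and 3.48 times in valve barcodes. With the study's ceiling of 20% mitochondrial UMIs at P3, 1338 of 5700 ventricular-like barcodes remained, with Mgp at 1.41 and Ptgds at 4.30. With the ceiling of 15% that the study set for E16.5, ventricular-like Mgp stood at 1.42 and 1.45 in the E16.5 libraries, so under these ceilings P3 lay close to E16.5. The macrophage level of Mgp at P3 was 0.631 with and without the ceiling, below the ventricular-like 1.41.

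The genes whose levels were most like those of Ptgds or Mgp were sought across gates and stages. Over 44 sums of a gate in a library, among 5285 genes, those with the highest Pearson correlation with Ptgds included Gm11716 (r = 0.965), Ckm (0.937), the muscle creatine kinase, Asb11 (0.924), Cox8b (0.913), a subunit of cytochrome c oxidase in heart and muscle, and Dhrs7c (0.910). The sums share libraries and depth, so no p is given. They include E8.5 and E10.5 sums of embryo endothelial and mesenchymal barcodes. Early cardiomyocytes with the Myl2 share of the atrial-like gate (73, 55 and 51 barcodes) are also among them. Ckm, for example, stood at 0.459 and 0.462 per 10000 in ventricular-like cells at E12.5 and at 24.8 and 26.9 at E16.5. Mgp was most like Nfia (0.917), Fos (0.898), Lmna (0.892), Nfix (0.881), Fosb (0.846) and Ltbp4 (0.843), of which Nfia and Nfix encode nuclear factor I proteins and Fos and Fosb are immediate early genes. Between Mgp and Ptgds r was 0.117.

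The promoters of Ptgds and of the gene most like it are shown because their levels moved together (RefSeq, GRCm38.p6, 250 bases before to 50 after the annotated start, read 5′ to 3′ on the gene's strand). Ptgds covers chr2:25469700-25469999 on the minus strand and Gm11716 chr11:107335674-107335973 on the plus strand. Both strands were searched and capitals mark the matches. The E-box motif, the site of basic helix-loop-helix factors, was written CANNTG. The motif of AP-1, the Fos and Jun dimer, was written TGACTCA. Motifs of GATA factors (GATAAG), of TEAD factors, known as the MCAT box (CATTCC), and of the basal promoter element called the TATA box (TATAAA) had no match in either window, and are found in 7.44%, 14.7% and 13.6% of promoters.
Ptgds: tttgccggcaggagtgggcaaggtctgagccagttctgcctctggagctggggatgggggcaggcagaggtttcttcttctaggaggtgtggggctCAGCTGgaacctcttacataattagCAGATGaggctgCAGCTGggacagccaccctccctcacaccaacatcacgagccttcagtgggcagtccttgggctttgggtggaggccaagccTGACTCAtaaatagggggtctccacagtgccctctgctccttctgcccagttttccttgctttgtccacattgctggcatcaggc
Gm11716: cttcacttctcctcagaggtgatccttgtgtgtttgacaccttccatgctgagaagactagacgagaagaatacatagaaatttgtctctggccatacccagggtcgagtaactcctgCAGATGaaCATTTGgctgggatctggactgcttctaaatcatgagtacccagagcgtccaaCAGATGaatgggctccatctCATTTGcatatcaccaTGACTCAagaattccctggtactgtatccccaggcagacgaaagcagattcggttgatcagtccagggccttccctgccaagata
Ptgds holds 3 E-boxes and Gm11716 holds 4, a motif found in 72.3% of 32851 mouse promoters of this length. Each also holds 1 AP-1 match that begins at position -35 from the start, a motif found in 5.20% of promoters. No 2 of the matches overlap in these windows. Among the other genes most like Ptgds, Ckm held 1 E-box, Asb11 held 1 and Cox8b held 2, and none of these 3 held the AP-1 letters; Dhrs7c and Mgp were without an entry.

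Genes around Mgp, the vitamin K cycle, mineral handling and BMP signalling, were followed from E12.5 to E16.5 through a list of 54 genes, of which 44 were tested. In ventricular-like cells 8 rose and 23 fell (edgeR, adjusted p under 0.05), with a median log2 change of -0.46, whereas 29.1% of all genes rose and 27.4% fell, with a median of 0.0055. Among those that fell were the BMP ligand and inhibitors Bmp4, from 0.0722 and 0.0551 to 0.00494 and 0.00586 per 10000 (log2 change -3.33 ± 0.27), Nog (-3.26 ± 0.27) and Fst (-3.83 ± 0.49), and the BMP target Id1 (-2.39 ± 0.14). Nog went from 0.0270 and 0.0285 to 0.00247 and 0.00234 per 10000 and Fst from 0.0191 and 0.0246 to 0.00165 and 0.000703. Nqo1, a quinone reductase, rose by 3.20 ± 0.22. In atrial-like cells 7 rose and 14 fell (median -0.19, and -0.36 without E16.5 replicate 2), beside 12.2% and 11% of all genes (median -0.013), with Gas6, another vitamin K-dependent Gla protein, up by 3.55 ± 0.15 from 0.122 and 0.108 to 1.11 and 1.33 per 10000 where macrophages held 0.857 and 1.60, and Bmp4 changed by -4.49 ± 0.26.

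In the endothelial gate 19 of these genes rose and 9 fell (median 0.26, and 0.12 without E16.5 replicate 2), beside 20.2% and 20.4% of all genes (median -0.00047). Without E16.5 replicate 1 the median was 0.23. Acvrl1, a BMP receptor of endothelium, rose by 2.58 ± 0.17 and Prrg3, a transmembrane Gla protein, by 2.89 ± 0.12, while the cushion factor Sox9 changed by -3.22 ± 0.50. Coronary barcodes were a larger share of the endothelial gate at E16.5 than at E12.5. The part of this share in these changes was not tested. In the mesenchymal gate 14 rose and 15 fell, beside 20.6% and 20% of all genes (median -0.0053). The median of the list in this gate was -0.19, with -0.12 without E16.5 replicate 1 and -0.13 without E12.5 replicate 2. There Alpl, the alkaline phosphatase that promotes mineralisation, rose by 3.23 ± 0.44 at levels of 0.00838 and 0.00910 to 0.0689 and 0.0808 per 10000, and Bmp2 (-2.41 ± 0.17) and Nog (-2.48 ± 0.45) fell. Acvrl1 rose in this gate too, by 4.54 ± 0.23 to 0.235 and 0.303 per 10000. At E16.5 it stood at 0.284 and 0.309 in endothelial cells and at 0.178 and 0.119 in macrophages. Valve barcodes were 489 and 742 of 551 and 830 in the mesenchymal gate at E12.5 and 135 and 149 of 616 and 536 at E16.5. The part of this share in these changes was not tested. In the mural gate 3 rose and 5 fell, beside 8.95% and 5.98% of all genes (median 0.084). With DESeq2 3 rose and 7 fell, beside 909 and 1130 of all genes, and with upper-quartile scaling 3 and 8, beside 942 and 1082. Elastin (Eln) changed by -4.24 ± 0.42, from 15.01 and 12.7 to 0.740 and 0.444 per 10000. The gate held 20 and 29 barcodes at E12.5, where neither a pericyte nor a smooth muscle subset reached 10. In E16.5 replicate 1, 111 of its 121 barcodes were in the pericyte subset. The part of this difference in the mural changes was not tested.

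Genes around Ptgds, prostaglandin synthesis and reception and the carriers of small lipids, were followed through a list of 36 genes, of which 26 were tested. In ventricular-like cells 4 rose and 12 fell, beside 29.1% and 27.4% of all genes, with a median log2 change of -0.35. The retinoic acid binding proteins Crabp1 (-3.42 ± 0.34) and Crabp2 (-2.62 ± 0.50), the prostaglandin E synthase Ptges (-2.40 ± 0.31) and the prostaglandin E receptor Ptger4 (-2.31 ± 0.67) fell. Their levels were low: Ptges went from 87 and 72 UMIs to 13 and 20, Crabp2 from 22 and 26 to 3 and 5, and Ptger4 from 15 and 10 to 4 and 1. Crabp1 stood at 0.0436 and 0.0292 per 10000 at E12.5, beside 0.708 and 0.747 in the mesenchymal gate. The part of free RNA in these levels was not tested. Fabp4, a fatty acid binding protein of capillary endothelium, rose by 4.04 ± 0.40 to 0.105 and 0.0614 per 10000, while the endothelial gate held it at 34.6 and 28.1 and macrophages at 0.238 and 0.167, so the ventricular-like level lies below that of macrophages, and the part of free RNA in it was not tested. In atrial-like cells 3 rose and 6 fell, beside 12.2% and 11% of all genes. The median was -0.37, with -0.52 without E16.5 replicate 1 and -0.22 without E16.5 replicate 2. Fabp3, the heart fatty acid binding protein, rose there by 0.96 ± 0.11 from 4.38 and 4.09 to 7.84 and 7.09 per 10000.

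In the endothelial gate 10 of the prostaglandin and lipid carrier genes rose and 5 fell (median 0.30, but -0.0035 without E16.5 replicate 1), beside 20.2% and 20.4% of all genes, with Fabp4 up by 6.77 ± 0.26 and the prostacyclin synthase Ptgis changed by -2.43 ± 0.17. Fabp4 is also a marker of the coronary subset, which was a larger share of this gate at E16.5 than at E12.5. The part of this share in these changes was not tested. In the mesenchymal gate 6 rose and 7 fell (median 0.10, but -0.14 to 0.13 with 1 library left out, lowest without E16.5 replicate 1), beside 20.6% and 20% of all genes. The prostaglandin E receptor Ptger4 rose by 3.48 ± 0.31, and the prostacyclin receptor Ptgir went from 0 UMIs in both E12.5 libraries to 29 and 23 UMIs at E16.5, at least 25.7-fold higher against a floor of 3 UMIs over the stage. Each receptor was near the macrophage level of E16.5 in 1 of the 2 libraries and above it in the other: Ptger4 stood at 0.145 and 0.142 per 10000 beside 0.0595 and 0.143, and Ptgir at 0.0312 and 0.0379 beside 0.0357 and 0. The smaller share of valve barcodes in the mesenchymal gate at E16.5, given for the other list, holds here too. In the mural gate the median was -0.57, with -0.23 without E12.5 replicate 1 and -0.59 without E12.5 replicate 2. Of the list 3 rose and 7 fell there, beside 8.95% and 5.98% of all genes. Among them were Fabp5 with a rise of 4.73 ± 0.19, from 1.28 and 0.709 to 23.0 and 20.8 per 10000 beside 36.9 and 33.9 in the endothelial gate, and Pla2g4a, the phospholipase that frees arachidonic acid, with 8 and 9 UMIs at E12.5 and 0 at E16.5, at least 18.3-fold lower. The limits of the mural gate given for the other list hold here too.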

How the data were processed

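Single-cell RNA-seq matrices were deposited as UMI counts per gene and barcode; the counts were made by the authors with Cell Ranger 2.1.1 against mm10 and analysed with Seurat 3.1.1, per the submitters' notes. The labels state trypsin digestion and 3′ v2 chemistry, and the study's methods differ from the labels on both. The E16.5 replicate 1 matrix comes from 2 sample records, and E8.5 replicate 1 was not analysed here. Barcodes with at least 2000 UMIs and 1% mitochondrial UMIs were kept; the lists of unfiltered barcodes in the embryonic matrices were also used for barcodes with 1 to 100 UMIs. Doublets were treated by leaving out the 873 barcodes (1.30%) that met 2 gates, and no doublet caller was run. The mesenchymal gate was not counted for barcodes that also met the mural or epicardial gate, which were kept and named mural or epicardial. Gates asked for marker sums per 10000 UMIs of at least 15 for Tnnt2 with 30 for Myl2 or Myl7, 10 for endothelial, mural and epicardial, and 20 for mesenchymal and macrophage lists. Ventricular-like meant a Myl2 share of at least 0.5 and atrial-like at most 0.1; valve, fibroblast, endocardial and coronary subsets needed a marker sum of at least 2 and 2 times that of the other subset.

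Gate thresholds were set on the marker distributions. The members and lists were chosen with earlier results of these data known. From each pathway list the named genes come from the 6 with the largest absolute log2 change among those passing in a gate, and the most alike genes are the 6 with the highest correlation, of which 1 is not reported here.

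UMIs were summed per library and gate (at least 10 barcodes) for the 6 libraries from E12.5 to E16.5 and tested with edgeR 4.0.16 (quasi-likelihood, TMM, filterByExpr) in R 4.3.3, p-values being adjusted by Benjamini-Hochberg across every gene of the fit and called under 0.05. The 5 main gates entered 1 fit and the subsets another. Sums of the same library come from the same cell suspension, so the library was used as a block in an alternative. DESeq2 1.42.0 was another. Fitting was tested on simulated data. Intervals are exact 95% Poisson limits and, like the floor of 3 counts, cover counting error only. Alternatives were other scalings, barcode and mitochondrial filters, gates, chamber rules, and leaving out libraries. Python 3.11.15, numpy 2.4.6, scipy 1.17.1, pandas 2.3.3 and matplotlib 3.10.9 were used.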

Additional observations from a re-analysis of the deposited data

Results flagged for a closer look

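The difference of Mgp between mural and mesenchymal cells changed direction between stages in every library. Mural minus mesenchymal was 0.592 and 3.18 UMIs per 10000 at E12.5. It was -13.4 and -8.92 by E14.5, and -3.13 and -5.51 in the E16.5 libraries. The E12.5 difference did not pass its test. The change between stages was not tested, and the mural gate held 10 to 29 barcodes a library before E16.5. With looser gates the mean mural level of Mgp at E14.5 was 13.9 per 10000 in place of 4.71.

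Ptgds was found outside the gates compared, in barcodes with at least 3 melanocyte markers of Dct, Pmel, Mlana, Tyr and Tyrp1, a group chosen after values were seen. It stood at 1.59 and 1.54 per 10000 in the 5 and 4 such barcodes of E14.5, at 55.1 and 28.8 in the 4 and 2 of E16.5 and at 101 in the 5 of P3, all of suffix 1, above the macrophage level with intervals that did not overlap. With so few barcodes these are values of single cells. In the epicardial gate Ptgds stood at 0.530 and 0.329 at E14.5, at 0.892 and 0.777 at E16.5 and at 0.708 at P3, also above macrophages. At P3 suffix 1 stood at 1.07 and suffix 2 at 0.251, the latter from 5 UMIs in 10 barcodes beside 0.115 in its macrophages.

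Mgp in the epicardial gate, which entered no comparison, stood at 5.51 and 4.05 per 10000 at E12.5, at 18.4 and 12.9 at E14.5, at 29.6 and 32.4 at E16.5 and at 45.9 at P3, in 21 to 244 barcodes a library. At P3 suffix 1 stood at 58.0 and suffix 2 at 30.5, which lies between the E16.5 libraries. The gate also carried cardiomyocyte markers at 22.2 to 25.6 and mesenchymal markers at 128 to 155 per 10000 at E16.5, and their part in these levels was not tested. Barcodes that met both the epicardial and the mesenchymal gate were named epicardial.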

How the results depend on the processing

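Of 242 alternative values of the main gate differences, 226 kept direction and side of the threshold. The cause of the following exceptions was not tested. Mgp in mural minus mesenchymal cells lost its call with at least 4000 UMIs (-0.19, where E14.5 dropped out for too few barcodes and the mean is over E12.5 and E16.5) and with looser gates (-0.030). Ptgds in mesenchymal minus endothelial cells passed without E12.5 or E14.5 replicate 1, within a range of -0.72 to -0.054 over the libraries left out. Ptgds at E16.5 in mural minus mesenchymal cells was 0.028 with DESeq2, 0.030 with upper-quartile scaling, 0.0057 with at least 1000 UMIs, 0.067 with looser gates and -0.26 to 0.33 over the libraries left out. For valve minus fibroblast it was 0.23 with stricter gates, and for endocardial minus coronary -1.14 with stricter gates (edgeR adjusted p = 0.0165), 0.18 with looser gates, 0.18 without the top 5% of barcodes and -0.12 to 0.018 over the libraries left out.

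At single stages, Mgp in atrial-like minus ventricular-like cells was -0.064 with looser gates and -0.20 with chambers by check markers at E12.5, -0.47 to 1.11 over the libraries left out at E12.5, and -0.078 with stricter gates at E14.5. Ptgds was 0.24 with chambers by check markers at E12.5; in mesenchymal minus endothelial cells it was -1.66 to 0.30 at E12.5 over the libraries left out and 0.54 at E14.5 with stricter gates. Mgp in mural minus mesenchymal cells at E12.5 was -0.021 to 0.48 over the libraries left out. Mgp at E16.5 in mesenchymal minus endothelial cells lost its call with DESeq2 (0.40, DESeq2 adjusted p = 0.340) and without the top 5% of barcodes (0.24, edgeR adjusted p = 0.235).

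Genes called in mural minus mesenchymal cells ranged from 1195 to 1739 over the libraries left out (1941 with all; 1195 without E14.5 replicate 2). In valve minus fibroblast cells they were 964 with stricter gates and 728 to 1682 over the libraries left out (1572 with all; 728 without E14.5 replicate 1). Prostaglandin and lipid carrier genes called in the mural gate were 6 to 10 over the libraries left out. Mgp in the mesenchymal gate at E16.5 was 12.51 per 10000 with stricter gates. Of 283 levels above 0.5 per 10000, 8 moved by over 1.5 times, all of Mgp. Without the top 5% of barcodes the coronary mean went from 0.869 to 1.53 at E12.5, from 1.32 to 0.593 at E16.5 and from 7.94 to 12.3 at P3. The endothelial level at P3 went from 12.3 to 18.7. With looser gates the coronary mean at E16.5 was 0.622 and the mural mean at E14.5 was 13.9 in place of 4.71. The fibroblast mean at E14.5 went from 4.91 to 8.87 with stricter gates, and ventricular-like P3 from 0.665 to 1.41 with the mitochondrial ceiling. The replicate block changed the call of Mgp between chambers at E12.5 and no other call; the mean of Mgp between chambers was 0.94 with it. Depth limits Ptgds outside cardiomyocytes, where its sums held few UMIs. Some stricter settings left a subset with too few barcodes and gave no value.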
